A study of Mus musculus with 583 samples.

Results

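The SR proteins are splicing factors, and 10 of their genes were followed here: Srsf1, Srsf2, Srsf3, Srsf4, Srsf5, Srsf6, Srsf7, Srsf9, Srsf10 and Srsf11. They were found in the deposited table by gene identifier, through GENCODE M21, so that 10 of its 38924 mouse genes were read out across every cell. An SR protein binds RNA through its RNA recognition motifs and, through a tail rich in arginine and serine, recruits the parts of the spliceosome to a splice site. SR protein kinases phosphorylate that tail, which sends the protein into the nucleus and its speckles, and several SR proteins also hand the spliced mRNA to the export machinery. Many SR genes hold a poison exon that, when included, sends their own transcript to nonsense-mediated decay, and mouse embryos that lack Srsf3 fail before the blastocyst forms.

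All libraries came from J1, a mouse embryonic stem cell line, grown in 2i/LIF, where the cytokine LIF together with MEK and GSK3 inhibitors keeps such cells in ground-state pluripotency. No cell was treated or carried an engineered allele, and the groups differed by the way their libraries were made. In Smart-seq / C1 and Smart-seq2 the whole transcript is copied and reads were counted. The others label the 3' end and count molecules by a random tag, the unique molecular identifier (UMI): CEL-seq2 and MARS-seq, which amplify by in vitro transcription (IVT), and Drop-seq and SCRB-seq, which amplify by PCR. Each method had replicate libraries A and B, so that 583 cells made 12 libraries. Nothing states that A and B were separate cultures, so p-values measure only how far these libraries lie apart, a spread that may be technical.

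The libraries held 29 to 80 cells or barcodes each. Full-length libraries summed to between 17630767 and 34984056 reads of mouse genes, and tag libraries to between 583302 and 2784441 UMIs. All 8 naive and core pluripotency markers had counts in every method, with a summed level of 1917 to 4516 CPM (counts scaled to a common library total) over libraries. The 8 fibroblast markers summed to at most 38.8 CPM with Postn at 0 in every library, the 6 primitive endoderm markers to at most 21.8 CPM and the 6 trophectoderm markers to between 30.02 and 246 CPM, and each of these 3 maxima was in CEL-seq2. Single markers differed between methods too: 4 of the 8 pluripotency markers were higher and 3 lower in full-length against tag libraries. In Smart-seq / C1 relative to Smart-seq2, 2 were higher and 2 lower, with Pou5f1 at a log2 fold change of −3.30 and Tfcp2l1 at 1.53. In CEL-seq2 relative to MARS-seq, 1 was higher and 2 lower, with Sox2 at 2.58 and Pou5f1 at −2.51. There Eomes, of the trophectoderm list, was higher (3.63). Their part in the results below was not tested. In Drop-seq, 29 of 42 barcodes of replicate A and 12 of 34 of replicate B lay 1 base from another barcode of the same library, so they are called barcodes, not cells. Here 1 base apart means alike once 1 base was left out of each. That covers 1 base replaced, or 1 base lost with the next bases moved up. Replicates A and B shared between 19 and 66 well or barcode names in the methods other than Drop-seq, which shared 0.

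What joins these genes is their arginine-serine tail, and the coding sequence shows how unequal the tails are. In the coding transcript read for each gene, neighbouring codons for arginine and serine made 106 pairs over 491 codons in Srsf4 and 55 over 238 in Srsf7, but 31 over 248 in Srsf1 and 9 over 222 in Srsf9, the fewest. The windows below are the 90 bases densest in such pairs, read 5' to 3' on the coding strand from GENCODE M21 transcripts (GRCm38), with capitals on each codon that has an arginine-serine neighbour. They are shown for Srsf4 and Srsf7, whose levels moved most between full-length and tag methods, and for Srsf1 and Srsf9, with the tightest and the sparsest such window of the 4.
Srsf4, bases 535 to 624 of its coding sequence: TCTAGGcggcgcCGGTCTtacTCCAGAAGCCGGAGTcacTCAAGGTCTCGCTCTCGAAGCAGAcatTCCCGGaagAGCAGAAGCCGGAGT
Srsf7, bases 379 to 468 of its coding sequence: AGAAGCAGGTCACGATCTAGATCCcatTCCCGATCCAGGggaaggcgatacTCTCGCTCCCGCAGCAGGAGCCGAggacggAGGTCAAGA
Srsf1, bases 607 to 696 of its coding sequence: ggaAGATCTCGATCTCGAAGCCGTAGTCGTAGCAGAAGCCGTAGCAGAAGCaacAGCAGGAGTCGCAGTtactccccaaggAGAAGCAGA
Srsf9, bases 514 to 603 of its coding sequence: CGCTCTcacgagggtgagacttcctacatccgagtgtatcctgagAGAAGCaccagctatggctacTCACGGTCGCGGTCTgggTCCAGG
The Srsf4 window holds 18 pairs, that of Srsf7 19, that of Srsf1 21 and that of Srsf9 7. The longest lower-case run of the 4 windows is in Srsf9.

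The family was also set beside other genes in annotated features that the choice of genes had not used. A transcript marked as a target of nonsense-mediated decay was annotated for 9 of the 10 genes, all but Srsf10, against 29.1% of 11368 tested protein-coding genes. A retained-intron transcript was annotated for 8 of the 10, all but Srsf9 and Srsf10, against 59.9%. The 10 genes had a median of 7.5 annotated transcripts, against 5 for the tested protein-coding genes, and the part of that number in these shares was not tested. The counts are per gene, so these transcripts cannot be told apart from the coding ones. Tag methods prime on the poly(A) tail, and 9 of 10 genes had the hexamer AATAAA or ATTAAA, searched on the transcript's own strand, in the last 50 bases of their coding transcript, against 79.5% of 11366 tested genes. The 30-base windows of Srsf4 and Srsf7, with the hexamer in capitals, are given because these genes differed most between transcript ends and whole transcripts.
Srsf4, gene at chr4:131873617-131901706, plus strand: ccattaaatttgAATAAAgactatttttgc
Srsf7, gene at chr17:80200080-80207307, minus strand: ttaagtttgttcAATAAAtctgcagagatt

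The 10 genes took 0.399% and 0.398% of mouse counts in libraries A and B of Smart-seq / C1, and 0.320% and 0.306% in those of Smart-seq2. Among tag libraries the share lay between 0.196% in MARS-seq A and 0.375% in CEL-seq2 B, and CEL-seq2 A held 0.205%. Within that share the division among the genes changed by method, as the plot of shares shows. Srsf7 took 20.1% and 33.4% of the family's counts in Smart-seq / C1 libraries A and B, and 22.5% and 25.2% in those of Smart-seq2, against 9.496% to 22.7% in the tag libraries. Srsf4 took 0.128% and 0.0798% in Smart-seq / C1, against 1.63% to 4.98% in the tag libraries.

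**Figure D1:**
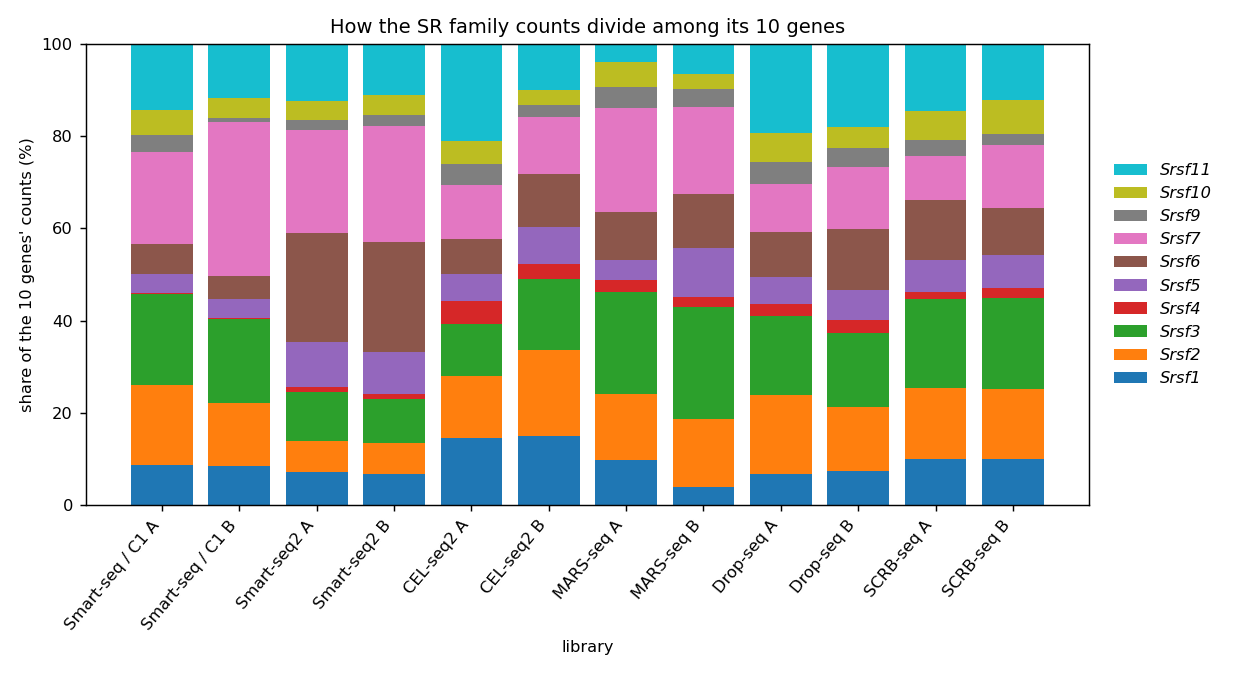
Share of the 10 genes' summed counts (%, vertical axis) taken by each gene in each of the 12 libraries, full-length libraries at the left; colours stand for genes and each bar sums to 100. Srsf4 is nearly invisible in Smart-seq / C1, Srsf6 takes 23.6% and 23.9% in Smart-seq2, and Srsf11 shrinks to 3.90% and 6.49% in MARS-seq.

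Levels of different genes were set beside each other per kilobase of exon in the full-length libraries, where longer transcripts give more reads. On that scale Srsf7, a factor with a zinc knuckle that also serves as an export adaptor, had the highest level in both methods, 309 ± 156 CPM per kb on the chip of Smart-seq / C1 and 182 ± 19.3 with Smart-seq2 (SD, n = 2 libraries). In Smart-seq / C1 it was followed by Srsf2, a factor long used as a marker of nuclear speckles, with 205 ± 0.278 CPM per kb and by Srsf3, the smallest of the classical family, with 95.8 ± 10.5. In Smart-seq2 it was followed by Srsf6 with 134 ± 4.53 CPM per kb and Srsf5 with 64.1 ± 1.88. Srsf4 was the lowest in both, with 1.13 ± 0.189 CPM per kb on the chip and 7.74 ± 0.292 in plates. Srsf11 and Srsf1 were neighbours on that scale in Smart-seq / C1, at 60.5 ± 1.29 and 59.98 ± 9.51 CPM per kb, and did not differ beyond their spread. Per kilobase of the longest coding transcript, however, Srsf11 was at 164 CPM and Srsf1 at 63.9 CPM, so their likeness depends on the length used.

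In the tag libraries, where a transcript gives 1 tag whatever its length, mean levels in CPM were compared directly. The highest was Srsf2 in CEL-seq2 (512 CPM), Srsf3 in MARS-seq (563) and SCRB-seq (498), and Srsf11 in Drop-seq (499.6). The lowest was Srsf4 in MARS-seq, Drop-seq and SCRB-seq and Srsf9, the member with the sparsest tail, in CEL-seq2 (97.8 CPM, beside 115 for Srsf4). Srsf3 was at 240 and 617 CPM in CEL-seq2 A and B, so the order in CEL-seq2 depended on the replicate.

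**Figure D2:**
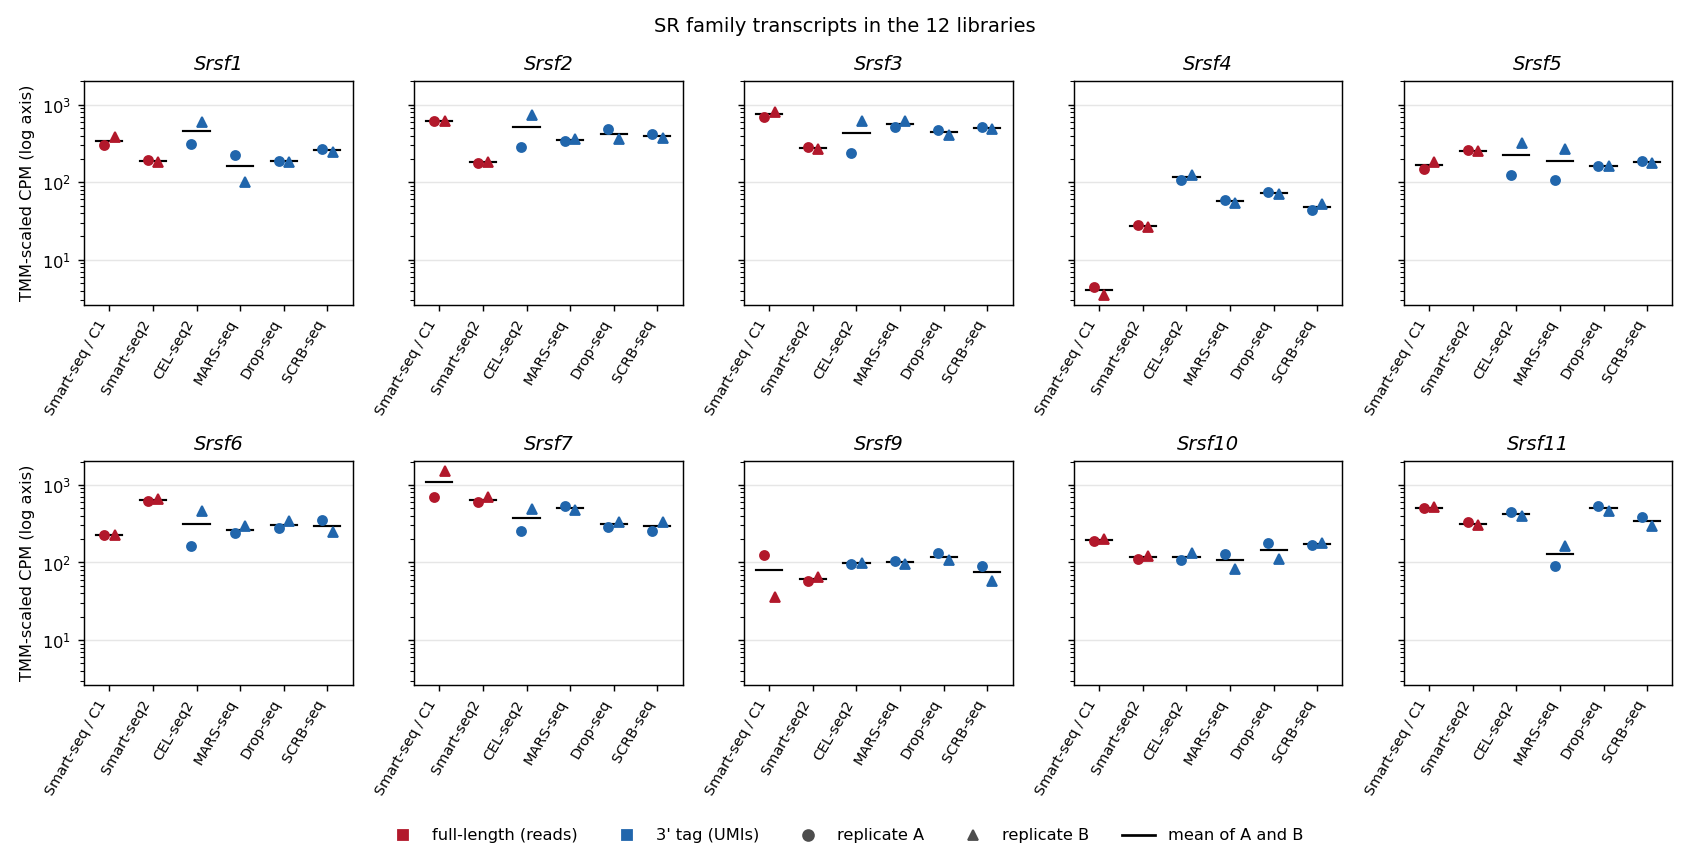
TMM-scaled CPM of each gene (vertical axis, log scale) in the 12 libraries, grouped by method along the horizontal axis; circles are replicate A, triangles replicate B, bars their mean, red full-length and blue tag methods. Srsf4 lies at 4.51 and 3.56 CPM in Smart-seq / C1 and at 43.6 to 124 CPM in the tag libraries.

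The broadest question of the design is whether full-length and tag methods see the same levels. Counts were summed over the cells of each library, scaled by TMM and fitted with edgeR's quasi-likelihood test over 14293 genes, all 10 SR genes among them, and a gene passed at a Benjamini-Hochberg adjusted p below 0.05. Srsf4 fell and Srsf7 rose in the full-length methods, and 8 of the 10 did not pass. That is 1 of 10 in each direction, where 25.6% of all tested genes passed as higher and 23.2% as lower. With TMM the median log2 fold change of the 10 was 0.10, and that of all tested genes 0.21. When DESeq2's size factors replaced TMM, which shifts the 10 as well, the median of all tested genes was 0.07.

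Srsf4, the largest classical SR protein, was counted at 4.51 and 3.56 CPM in libraries A and B of Smart-seq / C1 and at 28.3 and 26.8 CPM in those of Smart-seq2. CEL-seq2 gave 106 and 124 CPM, MARS-seq 59.1 and 54.2, Drop-seq 73.8 and 69.6 and SCRB-seq 43.6 and 52.6. All 4 full-length values lay below all 8 tag values, and replicates sat close together in every method. The log2 fold change was −2.70 ± 0.26 (SE; edgeR quasi-likelihood, adjusted p = 1.01e-07), and 17.6% of tested genes had a lower one. Among the 4885 genes whose longest transcript, like that of Srsf4, had over 2000 and up to 4000 bases, the 5th percentile was −2.25. Srsf4 passed in all 17 alternatives, between −2.85 and −2.05. The order of methods was CEL-seq2, Drop-seq, MARS-seq, SCRB-seq, Smart-seq2 and Smart-seq / C1, with no overlap between neighbours.

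Srsf7 was at 706 and 1490.1 CPM in libraries A and B of Smart-seq / C1 and 599 and 696 CPM in those of Smart-seq2. CEL-seq2 gave 251 and 493 CPM, MARS-seq 532 and 473, Drop-seq 289.8 and 337 and SCRB-seq 254 and 334. Every full-length library was above every tag library, and Smart-seq / C1 B was far above the other full-length libraries. The log2 fold change was 1.22 ± 0.22 (edgeR, adjusted p = 1.86e-04). It passed in all 17 alternatives, between 1.06 and 1.59.

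The other 8 genes had log2 fold changes of −0.47 (Srsf9) to 0.37 (Srsf6 and Srsf11) and did not pass. Srsf11, a larger relative of the family, had a log2 fold change of 0.37 ± 0.19 (edgeR, adjusted p = 0.116) and passed when Smart-seq / C1 A or B, CEL-seq2 A, MARS-seq A or B, Drop-seq A or B or SCRB-seq A was left out (0.53 to 0.79). Srsf6 had 0.37 ± 0.23 (edgeR, adjusted p = 0.195) and passed without CEL-seq2 A (0.49), CEL-seq2 B (0.67), MARS-seq B (0.69) or SCRB-seq A (0.70). Srsf9 passed as lower without Smart-seq / C1 A alone (−0.89, edgeR adjusted p = 0.0047). Srsf11 and Srsf6 also passed when genes with low counts were kept in (0.59 and 0.58), where the median of all tested genes was 0.57. Srsf11 and Srsf10 passed when every cell had equal weight (1.07 and 1.12, limma on log2(CPM + 1)), where that median was 0.57 too. In the fits named above without 1 library, the median of all tested genes lay between 0.26 (without Smart-seq / C1 A) and 0.56 (without Drop-seq A). With all libraries it was 0.21, so the other genes rose in these fits as well. The fold changes of Srsf1 (0.06), Srsf3 (−0.08) and Srsf5 (0.13) lay nearest to 0.

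**Figure D3:**
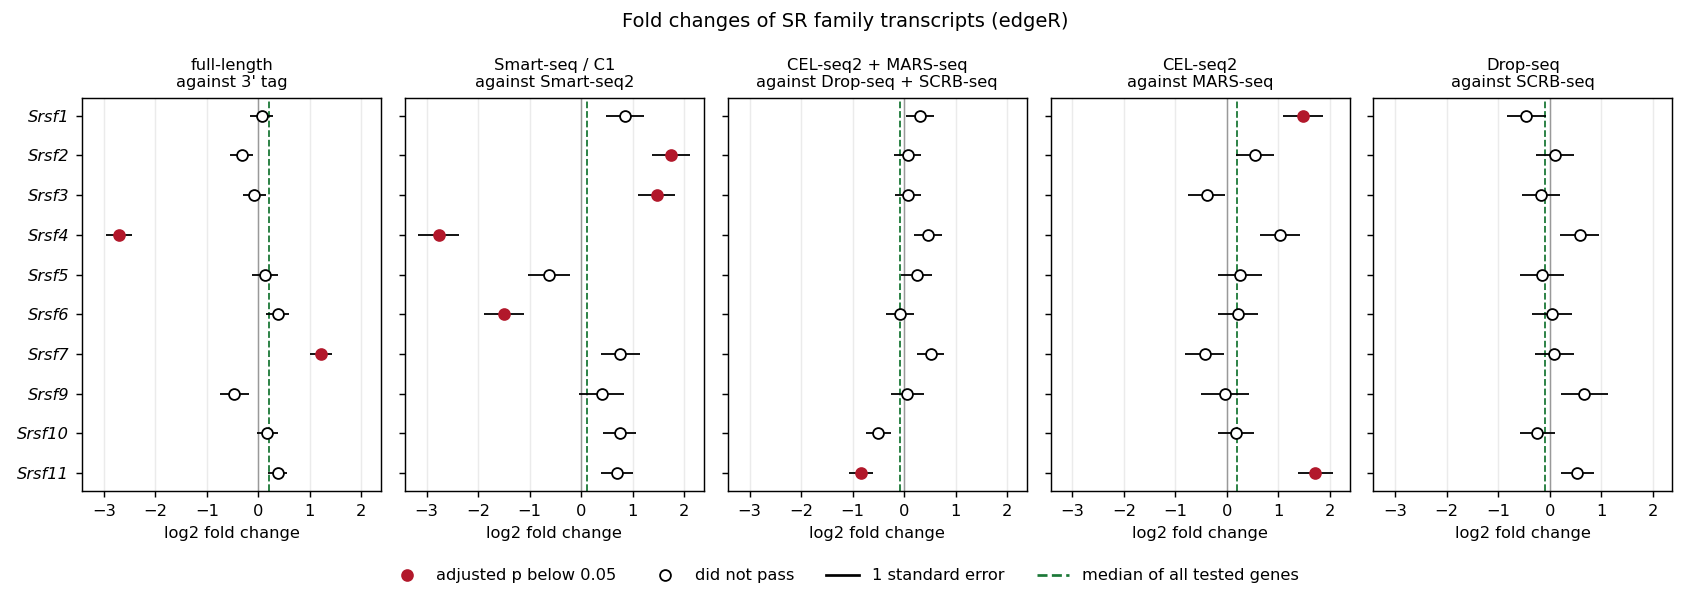
Log2 fold change of each gene (horizontal axis, bars 1 SE from edgeR) in the 5 comparisons, 1 panel each, with filled points at an adjusted p below 0.05, the grey line at 0 and the dashed line at the median of all tested genes. Srsf4 (−2.70) and Srsf7 (1.22) are filled at the left, Srsf2, Srsf3, Srsf4 and Srsf6 in the second panel, Srsf11 in the third, Srsf1 and Srsf11 in the fourth, and no point is filled for Drop-seq against SCRB-seq.

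Some SR genes share bases with other annotated genes, and the sources used here do not state whether the full-length reads were counted by strand, so reads of such a gene and its antisense partner may not have been told apart. In Srsf4, 1532 exonic bases at its 3' end (43.0% of its exons; chr4:131900062-131901706, GRCm38) are also exon of Gm12992, a processed transcript on the other strand, which itself received 48 counts in full-length and 18 in tag libraries. Among 393 tested genes with over 25% to 50% of their exons under an opposite-strand gene, the median log2 fold change of full-length against tag was −0.30 and 28.5% passed as lower, against 0.14 and 25.9% among the 10295 genes with no such overlap. The classes were not in order of overlap: the median was 0.50 with 9.56% lower among 2396 genes with over 0% to 10%, 0.33 with 16.5% lower among 890 with over 10% to 25%, and −2.34 with 54.4% lower among 182 with over 50%. Srsf4 lay below all but 14.8% of those 393. Srsf2 was in the same class, with opposite-strand exons of Mettl23 and Mfsd11 over 460 and 288 of its bases, at −0.33 ± 0.22 (edgeR, adjusted p = 0.246). The part of the overlap in the Srsf4 result was not tested. The division by overlap was made after the values of Srsf4 were seen.

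Near-identical copies touched others. Of the stretches of 31 bases in the coding transcript, 37.6% of those of Srsf3 also occurred in other genes (31.3% in Gm12355), 36.0% of those of Srsf5 in the pseudogene Gm12966 and 11.7% of those of Srsf10 in 4 genes. Gm12355 received 213 counts in full-length and 1510 in tag libraries, so the level of Srsf3 is uncertain by reads that may have been assigned there. Srsf6, Srsf9 and Srsf11 shared none, and Srsf7 shared 3.80%. Transcript length moves with this comparison over all genes: the median log2 fold change was 0.05 over 2328 genes with a longest transcript over 1000 and up to 2000 bases (Srsf2 and Srsf9), 0.59 over 4885 genes up to 4000 bases (Srsf4, Srsf5, Srsf6, Srsf7, Srsf10 and Srsf11) and 0.50 over 3684 genes up to 8000 bases (Srsf1 and Srsf3). Its part in the fold changes of single SR genes was not tested.

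Within the full-length methods, Smart-seq / C1 prepares cells on a microfluidic chip and Smart-seq2 in plates. Srsf2 and Srsf3 rose and Srsf4 and Srsf6 fell in Smart-seq / C1 relative to Smart-seq2. These are 2 of 10 in each direction, where 8.75% of tested genes passed as higher and 6.81% as lower. The median log2 fold change was 0.72 for the 10 and 0.11 for all tested genes.

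Srsf2 was at 608 and 607 CPM in libraries A and B of Smart-seq / C1 and at 177 and 185 CPM in those of Smart-seq2 (log2 fold change 1.75 ± 0.37, edgeR, adjusted p = 0.0039). Srsf3, which also links mRNA to the export receptor, was at 698 and 815 CPM on the chip and at 283 and 265 CPM in plates (1.46 ± 0.36, edgeR, adjusted p = 0.0111). For both genes the libraries of the chip lay far above those of the plates, without overlap. Srsf6, which binds exonic enhancers, went the other way, with 225 and 229 CPM on the chip and 628 and 659 CPM in plates (−1.50 ± 0.39, edgeR, adjusted p = 0.0135). Srsf4, whose values stand above, had the largest of these differences (−2.77 ± 0.39, edgeR, adjusted p = 2.19e-04), and 3.06% of tested genes had a lower one.

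The call of Srsf4 held in all 17 alternatives. With Smart-seq2 A left out, the adjusted p was 0.0770 for Srsf2, 0.122 for Srsf3 and 0.0687 for Srsf6 (edgeR), and with Smart-seq2 B left out it was 0.0635, 0.144 and 0.0840, although the fold changes moved little (1.67, 1.47 and −1.58 without A). Where a library of a compared method is left out, here and below, the remaining library is assumed to vary like those of the other methods. Srsf3 also missed the threshold without Drop-seq A (0.0524), Drop-seq B (0.0515) or SCRB-seq A (0.0501). Srsf7 had 0.76 ± 0.37 (edgeR, adjusted p = 0.178) and passed as higher without Smart-seq / C1 A (1.18, adjusted p = 0.0207), and with equal weight per cell Srsf2 and Srsf3 missed (limma, adjusted p = 0.0524 and 0.0791). Srsf9, a factor with a short tail, differed within Smart-seq / C1 more than any other gene differed between replicates, 125 CPM in A and 36.0 CPM in B, and its comparison did not pass (0.39 ± 0.44, edgeR, adjusted p = 0.590). Srsf1 (0.86), Srsf10 (0.75), Srsf11 (0.69) and Srsf5 (−0.63) did not pass either.

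Among the tag methods, the IVT pair (CEL-seq2 and MARS-seq) was set against the PCR pair (Drop-seq and SCRB-seq), with the methods averaged on the log2 scale. Srsf11 fell in the IVT pair, and none rose. That is 1 of 10 lower and 0 of 10 higher, where 12.9% of tested genes passed as lower and 9.14% as higher. The median was 0.07 for the 10 and −0.08 for all tested genes.

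Srsf11 was at 449 and 394 CPM in CEL-seq2 libraries A and B and at 91.3 and 162 CPM in those of MARS-seq. Drop-seq gave 541 and 458 CPM and SCRB-seq 389 and 299.6. MARS-seq was below all others and CEL-seq2 lay inside the range of the PCR methods, so the groups overlapped. The log2 fold change was −0.84 ± 0.23 (edgeR, adjusted p = 0.0141). It missed the threshold without MARS-seq A (−0.72, adjusted p = 0.0836), Drop-seq A (−0.84, 0.0600) or SCRB-seq A (−0.80, 0.0635). Srsf10, which represses splicing when dephosphorylated, was at −0.50 ± 0.24 (edgeR, adjusted p = 0.146) and passed with equal weight per cell (limma, −0.98, adjusted p = 0.0489).

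Within the IVT methods, Srsf1 and Srsf11 rose in CEL-seq2, done on a chip, relative to MARS-seq, and none fell. That is 2 of 10 higher, where 11% of tested genes passed as higher and 12.4% as lower. With TMM the median was 0.24 for the 10 and 0.19 for all tested genes. With DESeq2's size factors, which shift the 10 as well, the median of all tested genes was 0.02.

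Srsf11 had a log2 fold change of 1.72 ± 0.33 (edgeR, adjusted p = 0.0012), from the values above, and the libraries did not overlap. Srsf1, the founding member of the family, was at 312 and 589.5 CPM in CEL-seq2 A and B and at 227 and 100.1 CPM in MARS-seq A and B (1.48 ± 0.39, edgeR, adjusted p = 0.0104). Its replicates differed within both methods, with CEL-seq2 B highest of all 12 libraries and MARS-seq B lowest. Srsf1 missed the threshold without CEL-seq2 B (0.96, edgeR adjusted p = 0.143) or MARS-seq B (1.05, 0.187), and Srsf11 missed it without MARS-seq A (1.32, 0.0546).

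Srsf4 was at 1.03 ± 0.39 (edgeR, adjusted p = 0.0629) and passed without Smart-seq / C1 A (1.02, 0.0486) or B (1.02, 0.0476). Srsf2 passed without CEL-seq2 A (1.19, edgeR adjusted p = 0.0203) and Srsf3, as lower, without CEL-seq2 B (−1.22, 0.0303). With equal weight per cell, Srsf4 (2.63) and Srsf10 (1.86) passed as well in limma, where the median of all tested genes was 0.85. In CEL-seq2, replicates lay far apart for several genes that did not pass: Srsf6 was at 162 and 456 CPM, Srsf2 at 286 and 737 CPM, Srsf3 at 240 and 617 CPM and Srsf5 at 126 and 317 CPM, B above A each time.

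Drop-seq and SCRB-seq gave levels that were not told apart for any SR gene. In edgeR, 0 of the 10 passed and 0 had an unadjusted p below 0.05, and DESeq2 also called 0 of them. Of all tested genes 1.03% passed as higher and 0.483% as lower, that is 216 genes, with 2591 at an unadjusted p below 0.05. With TMM the median was 0.07 for the 10 and −0.09 for all tested genes. With DESeq2's size factors, which shift the 10 as well, the median of all tested genes was 0.11. The genes that passed then divided into 280 higher and 45 lower, against 147 and 69 with TMM. The widest gaps were 0.67 ± 0.46 for Srsf9 (131 and 107 CPM in Drop-seq A and B, 91.2 and 58.6 CPM in SCRB-seq) and 0.58 ± 0.38 for Srsf4. With equal weight per cell Srsf1 passed as lower in Drop-seq (−1.45, limma adjusted p = 0.0267), where the median of all tested genes was −0.82.

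Over all comparisons jointly, 7 of the 10 differed among the 6 methods, where 65.4% of all tested genes did. These were Srsf1, Srsf2, Srsf3, Srsf4, Srsf6, Srsf7 and Srsf11, led by Srsf4 (edgeR, adjusted p = 9.69e-07) and Srsf11 (8.56e-04). Srsf3 was nearest to the threshold (0.0334) and passed in 7 of 17 alternatives; without a library its adjusted p reached 0.129 at most, and it missed without Smart-seq / C1 B, either library of Smart-seq2, MARS-seq, Drop-seq or SCRB-seq. Without Smart-seq2 A or B, Srsf2 (0.0871 and 0.0748) and Srsf6 (0.0751 and 0.105) missed too, Srsf2 also without MARS-seq A (0.0542), and Srsf1 missed without CEL-seq2 B (0.0545) or MARS-seq B (0.0503). Srsf9 passed without Smart-seq / C1 A (0.0291). With equal weight per cell 6 of the 10 passed: Srsf2 and Srsf3 missed and Srsf10 passed (limma, adjusted p = 0.103, 0.150 and 0.00120).

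Srsf5 (edgeR, adjusted p = 0.602), Srsf9 (0.412) and Srsf10 (0.123) were not told apart among methods. Srsf5 ranged over libraries from 106 to 317 CPM, and the ranges of neighbouring methods overlapped all along its order. Srsf10 ranged from 83.6 to 198 CPM, the narrowest span of the 10 on a ratio scale (2.37-fold), whereas Srsf4 spanned 35.0-fold.

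The partners of the SR proteins were taken as lists, described by their counts. Among kinases and importers of SR proteins, 8 of 10 tested genes rose and 1 fell in full-length relative to tag methods, with a median of 0.87, beside 25.6% and 23.2% and a median of 0.21 for all genes. Clk1 (1.85 ± 0.20, edgeR adjusted p = 4.15e-07) and Srpk1 (1.83 ± 0.21, 1.10e-06), both kinases of the tail, had the smallest p. In Smart-seq / C1 relative to Smart-seq2, 4 of 10 rose and 0 fell, led by Clk1 (2.11) and Dyrk1a (2.06). In the IVT pair 1 rose and 3 fell, with Prpf4b at −1.61 and the importer Tnpo3 at −1.01. In CEL-seq2 relative to MARS-seq 2 rose and 0 fell, Tnpo1 (1.49) and Dyrk1a (1.29), and 0 passed in Drop-seq against SCRB-seq.

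Other proteins with an arginine-serine tail divided, with 4 of 21 up and 3 down in full-length methods, where Acin1 (−1.50 ± 0.22) and Luc7l2 (−1.07 ± 0.20) led. In Smart-seq / C1 relative to Smart-seq2, 8 rose and 2 fell, led by Luc7l2 (2.93) and Srek1 (2.41). In the IVT pair 1 rose and 8 fell, led by Rbm25 (−1.56) and Luc7l3 (−1.55), a count of 8 in 21 beside 12.9% of all genes. In CEL-seq2 relative to MARS-seq 5 rose and 1 fell, with Luc7l at 2.32 and Rnps1, a part of the exon junction complex, at −2.86. Rbm25 (1.54) and Acin1 (1.63) were the 2 that rose in Drop-seq relative to SCRB-seq.

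The hnRNP proteins, which often oppose SR proteins on the same exons, had 5 of 26 up and 10 down in full-length methods, with Pcbp2 at −2.95 ± 0.21 and Hnrnpa3 at −3.21 ± 0.28. In Smart-seq / C1 relative to Smart-seq2, 7 rose and 1 fell, with Pcbp2 at 1.71 and Ptbp3 at 2.00. In the IVT pair 2 rose and 3 fell, with Hnrnpa1 at −1.20 and Hnrnph3 at 1.11. In CEL-seq2 relative to MARS-seq 9 rose and 2 fell, led by Hnrnpll (2.90) and Hnrnpc (1.82), and in Drop-seq relative to SCRB-seq Hnrnpd alone rose (1.55).

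The factors that first recognise splice sites, and that SR proteins recruit, had 6 of 18 up and 7 down in full-length methods. U2af1, the subunit that reads the 3' splice site (−2.61 ± 0.26), and Sf3a2 (−2.81 ± 0.31) led there, and both fell in Smart-seq / C1 relative to Smart-seq2 as well (−2.81 and −3.40), where 1 of 18 rose and 10 fell with a median of −1.04. In the IVT pair 8 rose and 1 fell, with Sf3a2 at 2.58 and U2af1 at 1.86. In CEL-seq2 relative to MARS-seq 3 rose and 3 fell, led by Sf3b1 (2.36) and Sf1 (1.76), and in Drop-seq relative to SCRB-seq Snrnp70 alone rose (2.04).

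Factors of nonsense-mediated decay, the pathway that meets poison-exon transcripts, had 5 of 15 up and 2 down in full-length methods, with Rbm8a, a core part of the exon junction complex, at −0.83 ± 0.19 (edgeR, adjusted p = 0.0013). In Smart-seq / C1 relative to Smart-seq2, 3 rose and 1 fell, with the kinase Smg1 at 1.95. In CEL-seq2 relative to MARS-seq 4 rose and 1 fell, with Smg9 at −3.83. Upf3b (−1.90) and Upf3a (−1.996) fell in the IVT pair, where 1 of 15 rose and 5 fell. Of 11 export factors, 6 rose and 3 fell in full-length methods, with Alyref2 at −3.04 ± 0.40 and the receptor Nxf1 at 1.35 ± 0.25. Thoc2 (2.09) and Thoc1 (1.87) rose in Smart-seq / C1 relative to Smart-seq2, Ddx39b (1.38) and Alyref (1.14) rose in the IVT pair, and in CEL-seq2 relative to MARS-seq Ddx39b rose (1.46) and Alyref2 fell (−3.17).

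To ask how many single cells showed each SR transcript at equal depth, every cell was thinned to 10000 counts of mouse genes. No cell held fewer than 10186 counts, spike-ins included. The typical cell showed 7 to 9 of the 10 genes, depending on the library. Srsf3 was seen in a median of 100% of cells over libraries, with its lowest share, 73.5%, in CEL-seq2 A, and Srsf7 in a median of 98.9%. All 10 were seen together in at most 21.6% of cells, in CEL-seq2 B.

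**Figure D4:**
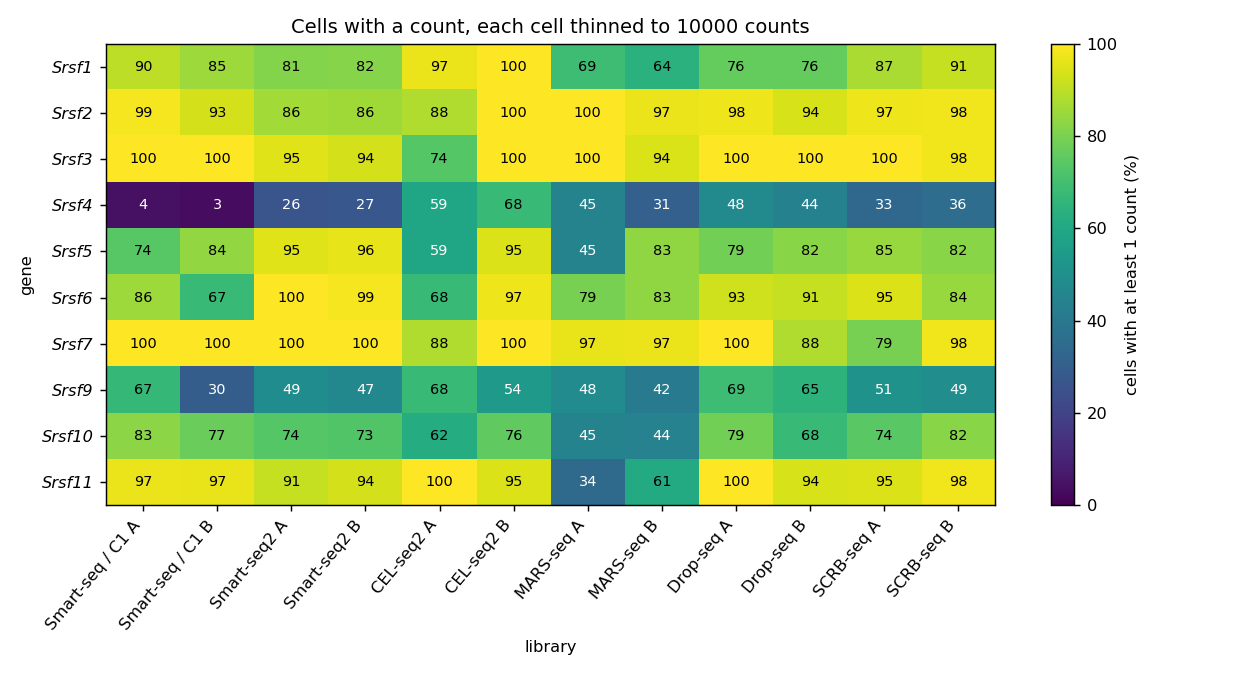
Percent of cells with at least 1 count of each gene (rows) in each library (columns, full-length at the left), with every cell thinned to 10000 counts; colour runs from 0 to 100. The row of Srsf4 is darkest, at 4.35% and 3.28% in Smart-seq / C1, and MARS-seq A is low for Srsf11 (34.5%).

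Srsf4 had the lowest median over libraries, 34.4% of cells, although Srsf9 was lower in CEL-seq2 B (54.1%, against 67.6% for Srsf4) and Srsf11 in MARS-seq A (34.5%, against 44.8%). In Smart-seq / C1 3 of 69 cells of A (4.35%, exact Clopper-Pearson 95% interval 0.906% to 12.2%) and 2 of 61 cells of B (3.28%, 0.400% to 11.3%) had a count. In Smart-seq2 the shares were 26.2% of 80 cells of A and 27.3% of 77 of B. In tag libraries they lay between 30.6% (MARS-seq B, 16.3% to 48.1%) and 67.6% (CEL-seq2 B, 50.2% to 82.0%). Without thinning, 10 of 69 and 11 of 61 cells of Smart-seq / C1 had a read of Srsf4, and 77 of 80 and 73 of 77 of Smart-seq2. The median per cell, spike-ins included, was 318324 and 323536 reads on the chip and 493394 and 475631 reads in plates. The 95 and 56 reads of Smart-seq / C1 A and B thus came from few cells, with up to 26 reads in 1 cell of A. The intervals cover counting error only.

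Srsf9 was seen in 66.7% of cells of Smart-seq / C1 A (54.3% to 77.6%) and 29.5% of B (18.5% to 42.6%), intervals that do not overlap within 1 method. In tag libraries it was seen in 41.7% (MARS-seq B) to 69.0% (Drop-seq A) of cells or barcodes. Srsf11 was seen in 100% and 94.6% of cells of CEL-seq2 A and B, against 34.5% and 61.1% of cells of MARS-seq. Srsf10 was seen in 44.8% and 44.4% of cells of MARS-seq A and B and in 61.8% to 82.6% of cells elsewhere. Shares and levels rest on the same counts and are not independent of each other.

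Variation from cell to cell, beyond that of genes of like level, was tested for 9 genes, Srsf4 being under the mean of 0.2 thinned counts in at least 1 library. None passed in limma, where 2.48% of 2664 tested genes lay above the trend and 2.97% below. The residual log2 squared coefficient of variation lay between −0.03 and 0.02 for 8 genes. Srsf5 was at −0.23 ± 0.11 (SE; limma, unadjusted p = 0.0435, adjusted p = 0.244), the 1 gene with an unadjusted p below 0.05. With Drop-seq barcodes 1 base apart joined, Srsf5 was at 0.07 (limma, unadjusted p = 0.522), and Srsf9 was then the gene below 0.05 (−0.30, limma, unadjusted p = 0.00925, adjusted p = 0.112). Cells of other methods were also thinned by a new random draw there. The part of joining was not told apart from that of the draw.

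Within libraries, the SR transcripts showed next to no shared variation among cells. The median Spearman correlation over pairs of SR genes lay between −0.05 (SCRB-seq A) and 0.11 (Smart-seq / C1 B), and that over all pairs of genes in the same range of means lay within 0.01 of 0 in every library. Cells of 1 library share its depth and preparation, counts were sparse, and no p is given.

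Across the 12 libraries, which differ in method and depth and of which A and B share a method, the closest partners of each gene by Pearson's r of TMM-scaled log2 CPM were looked up as a description, among 5568 genes. Within the family the highest likeness was between Srsf2 and Srsf3 (r = 0.85), followed by Srsf5 and Srsf6 (0.75), and the lowest between Srsf4 and Srsf7 (−0.78). Beyond the family, Srsf4 was most like Rab5if (0.96) and Scand1 (0.95), Srsf7 like Brix1 (0.97) and Zfp207 (0.96), and Srsf11 like Paip1 (0.95) and Tbl1x (0.95). Srsf2 was most like Uso1 (0.91) and B4galt6 (0.88), Srsf3 like Dnajc13 (0.91) and Dcp2 (0.86), Srsf6 like Polr2m (0.93) and Actn4 (0.90), and Srsf10 like Picalm (0.95) and Pgap1 (0.94). Srsf5 was most like Pcyt1b (0.90) and Nup50 (0.85), Srsf9 like Palm3 (0.89) and Ube2o (0.86), and Srsf1 like mt-Nd1 and mt-Cytb (0.90 each), which are mitochondrial transcripts.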

How the data were processed

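The 10 genes and the gene lists were chosen with earlier results of these data known. The authors deposited whole-number counts per gene and cell. Per the submitters' processing notes, bcl2fastq and STAR 2.4.0 with mm10 were used. The counting tool of the full-length reads, its strand setting and the annotation are not given in the sources used here. Of 38924 mouse gene identifiers, 37607 matched GENCODE M21 (GRCm38), which gave symbols, lengths, overlaps and sequences. Spike-ins (92 rows) were left out, except in the medians and the minimum of counts per cell.

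Counts were summed per library (12 libraries). edgeR 4.0.16 (R 4.3.3; filterByExpr by method, TMM, robust quasi-likelihood, 1 mean per method, 6 residual degrees of freedom) gave 5 orthogonal contrasts and their joint test, with Benjamini-Hochberg adjustment over 14293 genes. Variation was tested with limma 3.58.1 on residual log2 squared coefficients of variation. Alternatives were DESeq2 1.42.0 and its size factors, no filter, equal weight per cell, a replicate block and each library left out. Both tests were also run on simulated data. For edgeR these had a smaller spread between libraries than the real fit found, so that run does not vouch for the calls here. No doublet caller was run. Genes beyond the 10 were named by rule: the 2 smallest p per list and comparison among those that passed, and the 2 most alike per gene. Some genes that this rule selected are not reported here.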

Additional observations from a re-analysis of the deposited data

Results flagged for a closer look

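For each of the 10 genes, the farthest library was compared with the others within the 4 full-length and within the 8 tag libraries by Dixon's ratio of gap to range, 20 groups in all, and 3 stood apart; chance alone flags about 1 group in 20, and libraries of different methods are not replicates of each other. Srsf7 in Smart-seq / C1 B was at 1490.1 CPM, with the next full-length library, Smart-seq / C1 A, at 706 CPM. Without Smart-seq / C1 B, Srsf7 still passed as higher in full-length methods. Srsf1 in CEL-seq2 B was at 589.5 CPM, with the next tag library, CEL-seq2 A, at 312 CPM, and Srsf2 in CEL-seq2 B was at 737 CPM, with the next, Drop-seq A, at 482 CPM. CEL-seq2 B was the deepest tag library, with 2784441 UMIs of mouse genes, against 1236129 in CEL-seq2 A. The median per cell, spike-ins included, was 76839 UMIs in B and 36952 in A. The part of depth in the values of Srsf1 and Srsf2 was not tested.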

How the results depend on the processing

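Leaving out 1 library at a time, the number of SR genes that passed lay between 2 and 4 for full-length against tag (2 with all libraries), 1 and 5 for Smart-seq / C1 against Smart-seq2 (4), 0 and 1 for IVT against PCR (1), 1 and 3 for CEL-seq2 against MARS-seq (2), 4 and 8 for the joint test (7), and stayed at 0 for Drop-seq against SCRB-seq and for variation. The number of all genes that passed lay between 6069 and 8080 (6975), 609 and 3305 (2223), 1746 and 3845 (3144), 1779 and 3932 (3341), 7978 and 11000.0 (9354), 11 and 626 (216), and 59 and 203 (145), in the same order. With equal weight per cell the SR genes passing were 4, 2, 2 and 4 in the first 4 comparisons and 1 in Drop-seq against SCRB-seq, and all genes passing were 6484 in CEL-seq2 against MARS-seq and 4066 in Drop-seq against SCRB-seq. Without a filter, 4 SR genes passed in full-length against tag. Drop-seq against SCRB-seq gave 325 genes with DESeq2's size factors, 469 without a filter and 954 with DESeq2's test. The causes were not tested. DESeq2's test, its size factors and the replicate block left the number of SR genes that passed the same in every comparison.

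No difference between A and B common to the methods was seen: over 15 pairs of methods, A minus B correlated between −0.08 and 0.08. Whether libraries of the same letter shared a culture or a day cannot be read from these correlations. The replicate block gave 6815 genes for full-length against tag, 2 SR genes among them. Of 850 SR fold changes under an alternative, none reversed where either fit called the gene, 17 lost and 26 gained the call, and 65 that passed in neither changed sign. Joining Drop-seq barcodes 1 base apart (25 and 28 left in A and B), with the thinning drawn anew, moved 2 of 20 shares past their interval. Thinning to 5000 counts moved 78 of 120 shares and no thinning 91. With the longest coding transcript as length, 17 of 20 levels per kb moved by more than 1 SD, and Srsf7 stayed highest and Srsf4 lowest in both methods. The level of Srsf4 in Smart-seq / C1 rests on 95 and 56 reads.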
